A study of Drosophila melanogaster with 16 samples.

Results

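The mitochondrial fatty acid oxidation enzymes described here are 10 genes chosen by name for their place in the pathway, of 10128 genes measured. They are whd and CPT2 (the carnitine palmitoyltransferases), CG12262, CG3902 and Arc42 (acyl-CoA dehydrogenases), Mtpalpha and Thiolase (the subunits of the trifunctional protein), scu (a 3-hydroxyacyl-CoA dehydrogenase), yip2 (a 3-ketoacyl-CoA thiolase) and Etf-QO (the oxidoreductase that hands electrons on to ubiquinone). All 10 had a row in the table, all 10 passed the filter on low values, and every library held at least 742 reads of each. Whole wild-type larvae of Drosophila melanogaster, the fruit fly, spent 24 h at 25 °C on food of 10% yeast, the low-sugar diet or LSD. Early in the second instar they were moved to fresh LSD or to food that held 15% sucrose besides the 10% yeast, the high-sugar diet or HSD. The labels name 2% blue food dye in the food after the move. There were 4 libraries of LSD larvae sampled after 8 h, and 3, 3 and 4 libraries of HSD larvae sampled after 4, 8 and 16 h. Diet alone differed between HSD and LSD at 8 h, whereas at 4 and 16 h diet and time cannot be told apart.

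Fatty acids are burned in mitochondria by β-oxidation, a spiral that shortens the acyl chain by a 2-carbon unit at each turn. Long chains enter as carnitine esters, and each turn runs through a dehydrogenation, a hydration, another dehydrogenation and a thiolytic cleavage that releases acetyl-CoA for the tricarboxylic acid (TCA) cycle. Electrons of the first dehydrogenation pass through the electron transfer flavoprotein and Etf-QO to the respiratory chain. In insects the fat body stores lipid and mobilises it, and oenocytes and muscle also take part in its use.

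Values are read counts that the authors divided by an effective library size. The libraries held 16300308 to 25284073 reads, so 3 reads were worth a value of 0.117 to 0.182. The labels do not state that replicates came from separate cultures, and the spread on which the p-values rest may be technical. Muscle, midgut and oenocyte markers were detected in all groups, and of 7 fat body markers 2 were measured, namely Rfabg (the apolipophorin precursor, at 2867 to 6029) and Lsp1gamma (at 0.156 to 2.50). Over 10 cuticle transcripts, 2 LSD libraries (replicates 2 and 3) and 1 library of HSD at 16 h (replicate 2) stood apart from their groups. The 2 LSD libraries were above the other LSD libraries in 9 of the 10 and below them in TwdlO, and the HSD 16 h library was above its group in 7, below it in TwdlO and TwdlQ and within it in TwdlP. TwdlJ, a cuticle gene expressed around the moult, was at 17.4, 33.6 and 12.5 in them. It was at 35.9, 15.8 and 42.4 in the HSD 8 h libraries and at most 0.938 in the others. Where a call printed below was lost without these 3 libraries, the value without them is given, a choice made once values had been seen. These libraries are called here the cuticle-rich libraries, a name relative to their own groups. HSD 4 h replicate 1 was also above the other 4 h libraries in all of the 10 but TwdlQ, where it lay between them. TwdlM, for example, was at 447 against 177 and 22.2, while TwdlJ was at 0.890. Over the 10 this library summed to 1109, beside 1073 in HSD 16 h replicate 2, and it was not left out with the 3. The HSD 8 h libraries, in which the 10 cuticle transcripts summed to 1503 to 2440, were kept. At 8 h this alternative thus sets them against the LSD libraries that were the lower ones in 9 of the 10 transcripts. In whole larvae, fewer cells of a type and less RNA per cell cannot be told apart.

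Against LSD the enzymes did not move as a block, and 3 patterns can be read from them. The group means of CG12262 and yip2 were lower at each later HSD time and reached 32.0% and 48.4% of their LSD level at 16 h, although the step from 4 to 8 h was called for neither and that of CG12262 from LSD to 4 h was not called. CG3902 fell at once and then recovered in part. A further 5 changed at 1 or 2 of the 3 times and by at most 0.31 on the log2 scale: these were CPT2, Arc42, Etf-QO, Mtpalpha and Thiolase. The outer gate enzyme whd was lower by 0.79 at 16 h. Only scu was called in none of the 3 comparisons with LSD.

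A gene was called when its limma p-value, adjusted by Benjamini-Hochberg over all 10114 genes tested, was under 0.05. At 8 h, 1 member (CPT2) was called higher and 3 (CG12262, CG3902 and yip2) were called lower, against a background of 17.5% of all genes higher and 16.9% lower. At 4 h, 3 members were called higher (Etf-QO, CPT2 and Arc42), against 12.8% of all genes, and 2 lower (CG3902 and yip2), against 11.4%. At 16 h no member was called higher by limma, by limma at an unadjusted p under 0.05 or by edgeR, where 19.4% of all genes were, and 6 were called lower (CG12262, yip2, whd, CG3902, Thiolase and Mtpalpha), where 20.4% of all genes were. Shares of 10 members near these backgrounds are no result about the enzymes on their own. The 4 of 10 called at 8 h compare with 34.4% of all genes in either direction, the 5 of 10 at 4 h with 24.2% and the 6 of 10 at 16 h with 39.7%. The median log2 difference of the members was -0.045 at 8 h, 0.038 at 4 h and -0.25 at 16 h. Over all genes it was -0.010, 0.0062 and -0.00054. The authors' deposited table gave the same numbers of members called in each direction at 8, 4 and 16 h. Without the 3 cuticle-rich libraries 0 members were called higher at 8 h and 2 at 4 h, and CPT2 lost its call at both times. At 16 h 2 members (CG12262 and yip2) were called lower, and under quantile normalization 3 (these and whd). Over all genes, leaving out the 3 libraries gave 1595 higher and 1355 lower calls of 10089 at 8 h, and 1006 and 946 at 4 h. At 16 h the 2059 lower calls over all genes became 1531 without them and 1670 under quantile normalization.

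**Figure D1:**
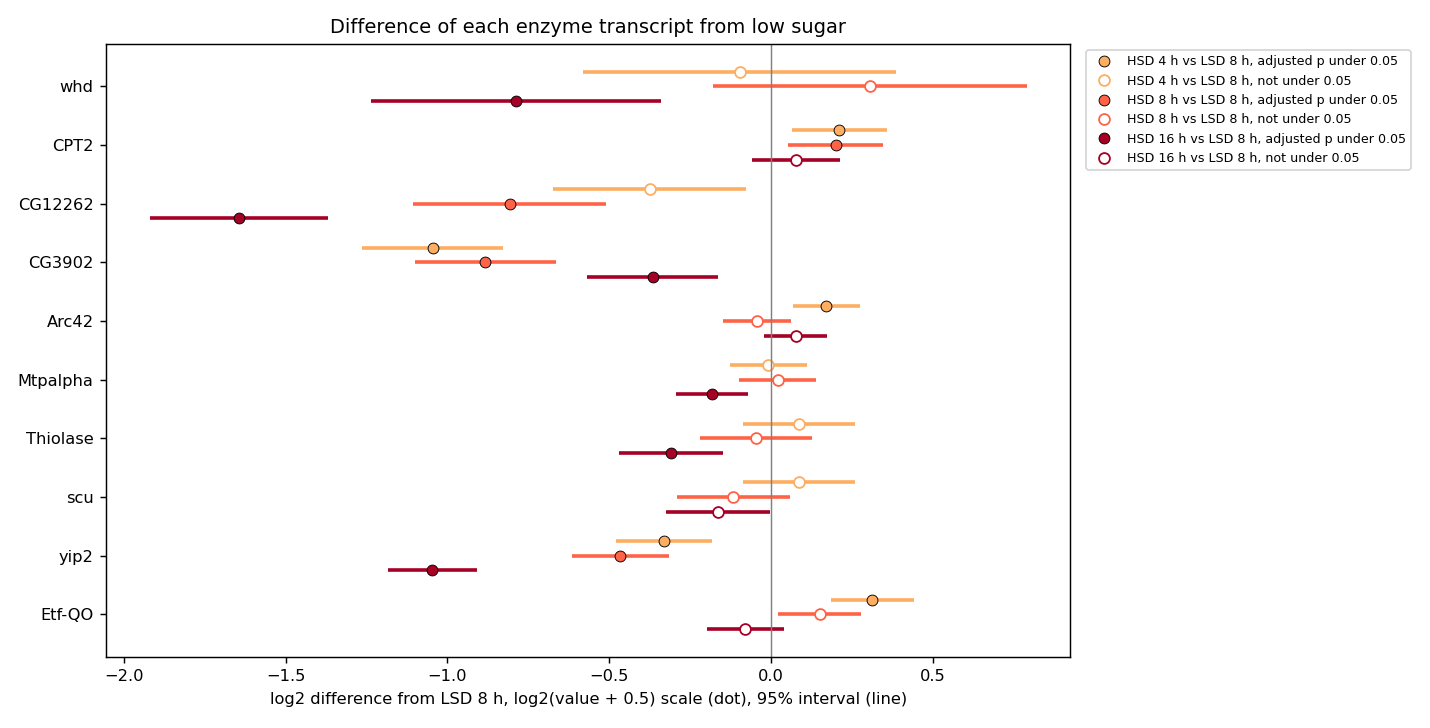
The horizontal axis is the log2 difference of each enzyme transcript from LSD at 8 h on the log2(value + 0.5) scale, with 1 row per gene and a dot per HSD time. Lines are 95% intervals and filled dots have an adjusted p under 0.05: the points of CG12262 and yip2 lie further left at each later time, and CG3902 lies furthest left at 4 h.

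The carnitine shuttle was tested through whd and CPT2. The enzyme encoded by whd, carnitine palmitoyltransferase 1, sits in the outer mitochondrial membrane and makes the acylcarnitines that enter the organelle, a step that malonyl-CoA inhibits. The gene lies on chromosome 2R at 10469473 to 10478567, minus strand, in the BDGP6.54 annotation, where 171 of its exonic bases overlap CG11777 and 182 overlap the antisense RNA CR45134 on the other strand. Its normalised read counts were 138, 236, 131 and 169 in LSD replicates 1 to 4, 209.8, 135 and 128 in HSD 4 h replicates 1, 3 and 4, 162, 212 and 244 in HSD 8 h replicates 2, 3 and 4, and 99.7, 98.4, 78.5 and 105 in HSD 16 h replicates 1 to 4. The HSD 16 h libraries were below all 10 others, while LSD, HSD 4 h and HSD 8 h overlapped and each spread widely. CG11777, at 6.63 to 10.2 in the 14 libraries, was far below whd. The fall of whd against LSD at 16 h passed the test (log2 difference -0.79, SE 0.21, limma adjusted p = 0.00930), and it lost the call without the 3 cuticle-rich libraries (-0.70, adjusted p = 0.0518; 0.00552 to 0.0518 over all alternatives). From 8 to 16 h of HSD it also fell (-1.09, SE 0.22, limma adjusted p = 0.00365), and from 4 to 16 h (-0.69, SE 0.22, limma adjusted p = 0.0286). The latter call was lost without HSD 4 h replicate 1 (adjusted p = 0.146) and without HSD 16 h replicate 3 (0.0759), within 0.0129 to 0.146 over the alternatives. Its difference at 8 h was not called (0.31, 95% interval -0.18 to 0.79, limma adjusted p = 0.323), and neither was that at 4 h (-0.10, 95% interval -0.58 to 0.39, limma adjusted p = 0.793).

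CPT2, on chromosome 3L at 2981022 to 2983551, encodes carnitine palmitoyltransferase 2, which turns acylcarnitine back into acyl-CoA at the inner membrane. Its values were 39.7, 46.6, 39.4 and 44.9 in LSD, 50.7, 49.8 and 47.5 in HSD at 4 h, 51.9, 47.6 and 47.4 in HSD at 8 h and 46.8, 44.7, 43.0 and 45.1 in HSD at 16 h. All 6 libraries of HSD at 4 and 8 h were above all 4 LSD libraries, and the 16 h libraries overlapped LSD. CPT2 was called higher at 8 h (0.20, SE 0.067, limma adjusted p = 0.0374) and at 4 h (0.21, SE 0.067, limma adjusted p = 0.0384) and not at 16 h (0.075, 95% interval -0.060 to 0.21, limma adjusted p = 0.362). The 8 h call was lost without LSD replicate 1 or 3 (adjusted p = 0.102 and 0.0889), without replicate 2, 3 or 4 of HSD at 8 h (0.151, 0.0624 and 0.0569) and without HSD 16 h replicate 2 or 4 (0.0514 and 0.0512), within 0.00925 to 0.151 over the alternatives. It was also lost under quantile normalization (0.0834), in a fit of only the groups compared (0.129) and without the 3 cuticle-rich libraries (0.21, adjusted p = 0.0626). The 4 h call was lost without LSD replicate 1 or 3 (0.104 and 0.0829), HSD 4 h replicate 1, 3 or 4 (0.125, 0.105 and 0.0504), replicate 3 of HSD at 8 h, where it lay just above the threshold, or HSD 16 h replicate 2 or 4 (0.0540 and 0.0538), within 0.0140 to 0.141. A fit of only the groups compared (0.141) and one without the 3 cuticle-rich libraries (0.22, adjusted p = 0.0683) lost it too. At both times the difference was small and lay at the edge of the threshold.

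The acyl-CoA dehydrogenases, which carry out the first step of each turn, behaved in 3 different ways. CG12262, named Mcad in the annotation, encodes the medium-chain enzyme and lies on chromosome 3L at 7719350 to 7721472, plus strand. Its values were 348, 398, 368 and 387 in LSD, 327, 253 and 292 in HSD at 4 h, 217, 193 and 234 in HSD at 8 h and 146, 120.1, 91.2 and 129 in HSD at 16 h. The ranges of the 4 groups did not overlap at any point, with each later HSD time below the one before. The group means were 376 ± 21.8 (SD, n = 4), 291 ± 36.9 (n = 3), 215 ± 20.5 (n = 3) and 121 ± 22.8 (n = 4). Against LSD the transcript fell by 0.81 on the log2 scale at 8 h (SE 0.14, limma adjusted p = 0.000734) and by 1.64 at 16 h (SE 0.13, adjusted p = 1.73e-06), when it was 3.12-fold lower. This 16 h difference was the largest of the 10 members in any of the 6 comparisons. At 4 h the difference was -0.38 and was not called (95% interval -0.67 to -0.079, adjusted p = 0.0655). It was called there without HSD 16 h replicate 1 (0.0458) or replicate 3 (0.0172), under quantile normalization (0.0373), in a fit of only the groups compared (0.0469) and with a replicate block (0.0454), within 0.0172 to 0.239 over the alternatives. Within HSD it fell from 8 to 16 h (-0.84, SE 0.14, limma adjusted p = 0.00107) and from 4 to 16 h (-1.27, SE 0.14, limma adjusted p = 5.52e-05). From 4 to 8 h it was not called (-0.43, 95% interval -0.75 to -0.11, limma adjusted p = 0.0819), but it was called under quantile normalization (0.0324), with library weights (0.0281) and without HSD 16 h replicate 3 (0.0307), within 0.0281 to 0.247 over the alternatives.

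A limit on CG12262 is its position: 1353 of its 1461 exonic bases are shared with CG7457 on the opposite strand. The libraries were stranded, but whether counting used the strand is not stated in the sources at hand. CG7457 was at 9.29 to 14.6 over the 14 libraries, which was 2.78 ± 0.0592% of the CG12262 value in LSD and 10.9 ± 3.64% in HSD at 16 h (mean ± SD). What part reads from the shared bases had in the values of either gene was not tested.

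CG3902 encodes the short/branched-chain acyl-CoA dehydrogenase, whose mammalian counterpart also acts in isoleucine breakdown. It lies on chromosome 3L at 18893120 to 18898293, minus strand, and shares 159 exonic bases with NijB. Its values were 375, 362, 428 and 443 in LSD, 189, 182 and 212 in HSD at 4 h, 213, 231 and 207 in HSD at 8 h and 279, 290.2, 366 and 314 in HSD at 16 h. Every 4 h and 8 h library was below every 16 h library, and of the 16 h libraries replicate 3 alone reached into the LSD range. CG3902 thus had its lowest group mean at 4 h (194 ± 15.6, SD, n = 3), was at 217 ± 12.7 at 8 h (n = 3), and stood at 312 ± 38.3 at 16 h (n = 4) against 402 ± 39.2 in LSD (n = 4). It fell against LSD at 4 h (-1.05, SE 0.10, limma adjusted p = 1.16e-05), at 8 h (-0.88, SE 0.10, limma adjusted p = 4.84e-05) and at 16 h (-0.37, SE 0.093, limma adjusted p = 0.00798). The 16 h call was lost without the 3 cuticle-rich libraries (-0.36, adjusted p = 0.0510) and under quantile normalization (0.0838), within 0.00201 to 0.0838 over the alternatives. From 4 to 16 h it rose (0.68, SE 0.10, limma adjusted p = 0.000294), and from 8 to 16 h likewise (0.52, SE 0.10, limma adjusted p = 0.00291). The difference between 8 and 4 h was not called (0.16, 95% interval -0.070 to 0.40, limma adjusted p = 0.363). It was the 1 member called higher in both of these later comparisons within HSD, where 16.6% (16 against 4 h) and 14.1% (16 against 8 h) of all genes were. In the same libraries CG12262 went the other way, so that the ratio of CG3902 to CG12262 was 1.07 ± 0.114 in LSD, 0.674 ± 0.0828 at 4 h, 1.02 ± 0.161 at 8 h and 2.70 ± 0.906 at 16 h (mean ± SD of the ratio of normalised read counts, not scaled by length).

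Arc42, on chromosome 3R at 19877737 to 19879309, encodes a short-chain acyl-CoA dehydrogenase. It was at 48.2, 52.9, 52.1 and 48.9 in LSD, 57.7, 56.7 and 56.2 in HSD at 4 h, 47.3, 49.8 and 49.7 in HSD at 8 h and 52.8, 52.1, 52.8 and 55.1 in HSD at 16 h. The 4 h libraries were the 3 highest of the 14, and the other 3 groups lay between 47.3 and 55.1. Arc42 was called higher at 4 h (0.17, SE 0.048, limma adjusted p = 0.0209) and then lower at 8 h than at 4 h (-0.21, SE 0.051, limma adjusted p = 0.0247). It was the only member called from 4 to 8 h, where 4.5% of all genes were lower and 4.71% higher (9.21% in either direction). No member was called higher there by limma, by edgeR or at an unadjusted p under 0.05. The 4 h call was lost without LSD replicate 1 (adjusted p = 0.0603) and HSD 4 h replicate 1 or 3 (0.0746 and 0.0564), within 0.0109 to 0.126 over the alternatives. That from 4 to 8 h was lost without HSD 4 h replicate 1 or 4 (0.0830 and 0.0654) and without replicate 2, 3 or 4 of HSD at 8 h (0.0930, 0.0608 and 0.0558), within 0.0105 to 0.110. At 8 and 16 h the differences from LSD were not called, with 95% intervals of -0.15 to 0.061 and -0.021 to 0.17.

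**Figure D2:**
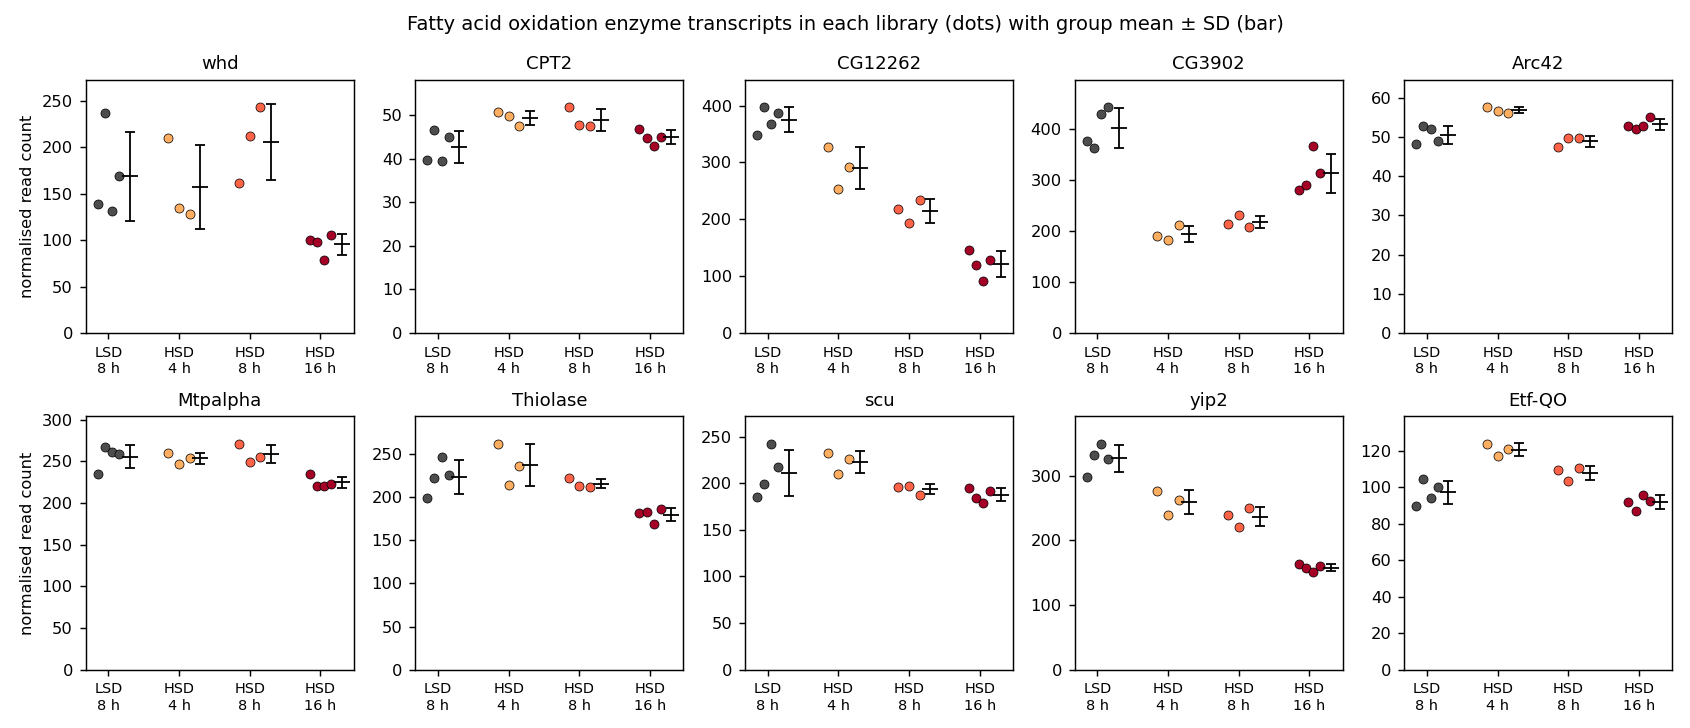
Each panel shows 1 enzyme transcript, with the normalised read count on the vertical axis from 0 and a point per library for LSD at 8 h and HSD at 4, 8 and 16 h; bars are the group mean ± SD. CG12262 steps down from a mean of 376 to 121, CG3902 dips to 194 at 4 h and returns to 312, and Arc42 lies between 47.3 and 57.7 in all 14 libraries.

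Long-chain intermediates are handled by the trifunctional protein of the inner membrane. Its alpha subunit, a hydratase and long-chain 3-hydroxyacyl-CoA dehydrogenase, is encoded by Mtpalpha (chromosome 2L, 9573563 to 9576769). Its beta subunit, a thiolase, is encoded by Thiolase, which the annotation names Mtpbeta (chromosome 2R, 23866648 to 23868603). Mtpalpha was at 235, 267, 261 and 259 in LSD, 260.1, 246 and 254 in HSD at 4 h, 271, 249 and 256 in HSD at 8 h and 235, 220.2, 220.1 and 223 in HSD at 16 h. Thiolase was at 198, 222, 246 and 225 in LSD, 262, 213 and 235 in HSD at 4 h, 222, 213 and 212 in HSD at 8 h and 181, 183, 168 and 186 in HSD at 16 h. For Thiolase the 16 h libraries were the 4 lowest of all, and for Mtpalpha they were below those at 4 and 8 h while 16 h replicate 1 reached LSD replicate 1. Neither gene was called at 4 or 8 h. At 8 h the differences from LSD had 95% intervals of -0.10 to 0.14 (Mtpalpha) and -0.22 to 0.13 (Thiolase), and at 4 h of -0.13 to 0.11 and -0.087 to 0.26.

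At 16 h both subunits were called lower than in LSD, Mtpalpha by 0.18 (SE 0.051, limma adjusted p = 0.0128) and Thiolase by 0.31 on the log2 scale (SE 0.074, adjusted p = 0.00556). Without the 3 cuticle-rich libraries the values were -0.13 (adjusted p = 0.177) and -0.25 (0.0738), and under quantile normalization -0.043 (0.504) and -0.16 (0.0732). Neither was called in those alternatives. Over the alternatives the adjusted p ran from 0.00455 to 0.504 for Mtpalpha and from 0.00252 to 0.0738 for Thiolase. The ratio of the alpha to the beta transcript was 1.15 ± 0.0636 in LSD, 1.08 ± 0.0808 at 4 h, 1.20 ± 0.0267 at 8 h and 1.25 ± 0.0591 at 16 h (mean ± SD of the ratio of normalised read counts). The highest LSD library and the lowest 16 h library were both at 1.20 of this ratio.

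Within HSD, Mtpalpha fell from 8 to 16 h (-0.20, SE 0.055, limma adjusted p = 0.0158), a call lost without HSD 8 h replicate 2 (0.0783; 0.00467 to 0.982 over the alternatives). It fell from 4 to 16 h as well (-0.17, SE 0.055, limma adjusted p = 0.0262). That call was lost without HSD 4 h replicate 1 or 4 (0.0947 and 0.0701) and without HSD 16 h replicate 2, 3 or 4 (0.0640, 0.0612 and 0.0572), within 0.0125 to 0.758, and also without the 3 cuticle-rich libraries (-0.16, adjusted p = 0.0536). Thiolase fell from 4 to 16 h (-0.39, SE 0.080, limma adjusted p = 0.00221) and from 8 to 16 h (-0.26, SE 0.080, limma adjusted p = 0.0261). The call from 8 to 16 h was lost without HSD 8 h replicate 2, 3 or 4 (0.0925, 0.0575 and 0.0597) and without HSD 16 h replicate 3 (0.0671), within 0.00677 to 0.668.

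The last steps for shorter chains are carried out by scu and yip2. The product of scu, a type 2 3-hydroxyacyl-CoA dehydrogenase whose mammalian counterpart is also a part of mitochondrial RNase P, is encoded on the X chromosome at 18091259 to 18092853. It was at 185, 199, 243 and 217 in LSD, 233, 210.2 and 226 in HSD at 4 h, 196, 197 and 187 in HSD at 8 h and 194, 184, 179 and 192 in HSD at 16 h. The LSD libraries spread from near the lowest to the highest of all 14, and the 4 h libraries were above those at 8 and 16 h. No difference from LSD was called, with 95% intervals of -0.087 to 0.26 at 4 h, -0.29 to 0.057 at 8 h and -0.32 to -0.0024 at 16 h. Without LSD replicate 1 the 16 h difference was -0.22 and was called (adjusted p = 0.0252, against 0.0990 with it; 0.0252 to 0.914 over the alternatives). From 4 to 16 h scu fell (-0.25, SE 0.080, limma adjusted p = 0.0279), a call lost without HSD 4 h replicate 1 or 4 (0.104 and 0.0804) and without replicate 2 or 3 of HSD at 16 h (0.0602 and 0.0688), within 0.00793 to 0.301.

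The mitochondrial 3-ketoacyl-CoA thiolase gene yip2 (chromosome 2L, 9915253 to 9917220) had no annotated neighbour overlapping its exons. Its values were 298, 332, 349 and 326 in LSD, 275, 239.7 and 263 in HSD at 4 h, 239, 220.2 and 249 in HSD at 8 h and 163, 157, 150.4 and 160.4 in HSD at 16 h. LSD stood above every HSD library and the 16 h libraries stood below all others, while 4 and 8 h overlapped. The means were 326 ± 21.5 (SD, n = 4), 259 ± 18.1 (n = 3), 236 ± 14.7 (n = 3) and 158 ± 5.33 (n = 4). The transcript fell against LSD at 4 h (-0.33, SE 0.069, limma adjusted p = 0.00360), at 8 h (-0.47, SE 0.069, limma adjusted p = 0.000284) and at 16 h (-1.05, SE 0.064, limma adjusted p = 2.06e-07), when it was 2.07-fold lower. All 3 calls held under each of the 27 alternatives run at the same threshold, with adjusted p-values of 0.00214 to 0.0484, 7.75e-05 to 0.00678 and 1.53e-07 to 5.80e-05. It also fell from 8 to 16 h (-0.58, SE 0.069, limma adjusted p = 0.000217) and from 4 to 16 h (-0.72, SE 0.069, limma adjusted p = 3.36e-05). From 4 to 8 h it was not called (-0.14, 95% interval -0.29 to 0.024, limma adjusted p = 0.267).

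Etf-QO, at the exit of the pathway to the respiratory chain, lies on chromosome 2R at 9910893 to 9913488 and was matched to the annotation by symbol, because its identifier in the table differed. It was at 89.9, 105, 94.4 and 100.1 in LSD, 124, 117 and 121 in HSD at 4 h, 109, 103 and 111 in HSD at 8 h and 91.9, 87.1, 96.0 and 92.5 in HSD at 16 h. The 4 h libraries were the highest of all, those at 8 h overlapped LSD by 1 library, and those at 16 h overlapped LSD more widely. Etf-QO rose at 4 h (0.31, SE 0.059, limma adjusted p = 0.00193), the largest rise of a member against LSD that was called. At 8 h the difference was not called (0.15, 95% interval 0.022 to 0.28, limma adjusted p = 0.0674), but it was called without LSD replicate 2 (0.0251) and with library weights (0.0213), within 0.0213 to 0.255 over the alternatives. At 16 h it was not called either (-0.080, 95% interval -0.20 to 0.039, limma adjusted p = 0.270). Within HSD it fell from 4 to 16 h (-0.39, SE 0.059, limma adjusted p = 0.000326) and from 8 to 16 h (-0.23, SE 0.059, limma adjusted p = 0.0122). The latter call was lost without HSD 8 h replicate 4 (0.0517; 0.00237 to 0.512 over the alternatives).

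Within HSD, 7 members were called lower at 16 than at 4 h and 6 lower at 16 than at 8 h, against 19.2% and 15.4% of all genes. The 6 were CG12262, yip2, whd, Etf-QO, Thiolase and Mtpalpha, and scu was the further member from 4 h. In either direction 8 and 7 members were called, beside 35.9% and 29.5% of all genes. The members' median log2 difference was -0.32 from 4 to 16 h and -0.22 from 8 to 16 h, beside -0.00016 and 0.0042 over all genes. Under quantile normalization 4 and 3 members were called lower: from 4 to 16 h whd, Mtpalpha and scu lost the call, and from 8 to 16 h Thiolase, Mtpalpha and Etf-QO did. Without replicate 1 of HSD at 4 h, or replicate 3 at 16 h, the count from 4 to 16 h was 4. Over all genes, quantile normalization also moved the split of calls from 1683 higher and 1946 lower to 2161 and 1553 for 16 against 4 h, and from 1424 and 1556 to 2477 and 1114 for 16 against 8 h. For 16 h against LSD it moved the split from 1959 and 2059 to 2440 and 1670, and for 8 against 4 h from 476 and 455 to 391 and 638.

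Counted by whether the libraries of the groups overlapped, 4 members stood clear of LSD at 8 h (1 above, 3 below; 37.7% of all genes in either direction), 6 at 4 h (3 above, 3 below; 28.9%) and 4 at 16 h (all below; 36.5%). Those at 16 h were CG12262, yip2, whd and Thiolase. Within HSD, 10 members stood clear between 16 and 4 h (9 below, and CG3902 above; 45.7% of all genes), 9 between 16 and 8 h (7 below, with CG3902 and Arc42 above; 45.4%) and 4 between 8 and 4 h (all below; 34.5%). All 10 enzymes were thus separated between 4 and 16 h of HSD, although the adjusted test called 8 of them.

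Summed over the 10 genes, the normalised read count was 2152 ± 131 in LSD (SD, n = 4), 1842 ± 143 in HSD at 4 h (n = 3), 1747 ± 43.0 at 8 h (n = 3) and 1468 ± 32.6 at 16 h (n = 4). CG12262 made up 17.5 ± 0.572% of that sum in LSD and 8.25 ± 1.44% at 16 h, whereas CG3902 made up 18.7 ± 1.62% and 21.3 ± 2.82% and was at 10.6 ± 1.02% at 4 h. To compare genes with each other, values were divided by exonic length. In LSD the mean value per kilobase of exon was highest for CG12262 (257 ± 14.9, SD, n = 4), CG3902 (254 ± 24.8) and yip2 (235 ± 15.5), and those neighbours overlapped between libraries. Next came scu at 186 ± 21.9, Thiolase at 139.9 ± 12.3, Mtpalpha at 88.5 ± 4.83, whd at 53.2 ± 15.1, Etf-QO at 42.3 ± 2.80, Arc42 at 35.6 ± 1.61 and CPT2 at 18.1 ± 1.56. Neighbours in this order whose ranges overlapped were CG12262 and CG3902, CG3902 and yip2, as well as whd and Etf-QO. At 16 h of HSD the order began with CG3902 (197 ± 24.2) and scu (165 ± 6.19), followed by yip2 (113 ± 3.83) and Thiolase (113 ± 4.92), and CG12262 was in place 5 at 83.1 ± 15.6. It went on with Mtpalpha (77.9 ± 2.47), Etf-QO (39.9 ± 1.60), Arc42 (37.5 ± 0.933), whd (30.1 ± 3.68) and CPT2 (19.1 ± 0.673). Here the overlapping neighbours were yip2 and Thiolase, CG12262 and Mtpalpha, as well as Etf-QO and Arc42. These are per-length levels of the whole larva, with exonic length taken from the union of annotated exons.

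Other genes of the pathway were taken from lists written for this report with earlier results of these data known. A list of 16 further genes held acyl-CoA synthetases, dehydrogenases, isomerases, flavoproteins, a carrier and others. They were listed under mitochondrial oxidation, and where their products act was not tested. Of all genes 17.5% were called higher and 16.9% lower at 8 h. These shares were 12.8% and 11.4% at 4 h, and 19.4% and 20.4% at 16 h. All 16 listed genes were measured, and 4 were called higher and 5 lower at 8 h, 6 and 2 at 4 h, and 4 and 6 at 16 h. Without the 3 cuticle-rich libraries the counts were 5 and 3, 6 and 1, and 4 and 6. Their median log2 differences were -0.058, 0.19 and -0.089. CG4500, which encodes an acyl-CoA synthetase of the bubblegum family, fell at 4 h (-1.11, SE 0.19, limma adjusted p = 0.00103), 8 h (-0.90, SE 0.19, limma adjusted p = 0.00343) and 16 h (-1.62, SE 0.18, limma adjusted p = 2.75e-05). The synthetases Acsl and bgm, which activate long and very long chains, went up: Acsl rose at 8 h (0.99, SE 0.17, limma adjusted p = 0.000940) and 16 h (1.16, SE 0.16, limma adjusted p = 0.000141), and bgm rose at 4 h (1.06, SE 0.18, limma adjusted p = 0.000890), 8 h (0.83, SE 0.18, limma adjusted p = 0.00355) and 16 h (1.14, SE 0.17, limma adjusted p = 0.000198). CG4860, a short-chain acyl-CoA dehydrogenase gene, fell at 8 h (-0.87, SE 0.11, limma adjusted p = 0.000127) and 16 h (-0.49, SE 0.10, limma adjusted p = 0.00303). CG4592, an enoyl-CoA isomerase gene, rose at 4 h (0.60, SE 0.071, limma adjusted p = 5.48e-05), 8 h (0.52, SE 0.071, limma adjusted p = 0.000166) and 16 h (0.59, SE 0.066, limma adjusted p = 2.87e-05). Lower calls in CG4500 and CG4860 and higher calls in Acsl and bgm thus stood side by side in the same libraries.

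Peroxisomes shorten very long chains by their own oxidases. Of all genes 17.5% were called higher and 16.9% lower at 8 h. These shares were 12.8% and 11.4% at 4 h, and 19.4% and 20.4% at 16 h. Of the 10 peroxisomal genes 5 were called higher and none lower at 8 h (median 0.34). At 4 h none was higher and 1 lower (0.077), and at 16 h 3 were higher and none lower (0.062). EdgeR gave the same counts, and at an unadjusted limma p under 0.05 there were 0 lower at 8 h, 0 higher at 4 h and 2 lower at 16 h. The acyl-CoA oxidase gene CG9527 rose at 8 h (0.67, SE 0.19, limma adjusted p = 0.0191), as did Pmp70, a peroxisomal membrane transporter gene (0.55, SE 0.12, limma adjusted p = 0.00369), and Mfe2, the multifunctional enzyme of the peroxisomal spiral (0.44, SE 0.11, limma adjusted p = 0.00981). CG17544, another acyl-CoA oxidase gene, fell at 4 h (-0.34, SE 0.10, limma adjusted p = 0.0270) and was higher at 16 h (0.47, SE 0.092, limma adjusted p = 0.00175). CG2316, an ABC transporter gene of the peroxisome, rose at 8 h (0.43, SE 0.14, limma adjusted p = 0.0275) and 16 h (0.40, SE 0.13, limma adjusted p = 0.0223), and Pmp70 was higher there too (0.34, SE 0.11, limma adjusted p = 0.0266).

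Among 8 genes that act on the pathway from outside, ACC had the largest differences from LSD. It encodes acetyl-CoA carboxylase, whose product malonyl-CoA inhibits carnitine palmitoyltransferase 1. Its values were 310.4, 422, 275 and 358 in LSD, 1479, 1700 and 1310 in HSD at 4 h, 2093, 1824 and 1898 at 8 h and 1646, 1681, 1943 and 1768 at 16 h, so that every HSD library was above every LSD library. ACC rose at 4 h (2.14, SE 0.13, limma adjusted p = 5.21e-07), 8 h (2.52, SE 0.13, limma adjusted p = 8.34e-08) and 16 h (2.38, SE 0.12, limma adjusted p = 3.98e-08). The transcriptional coactivator gene srl, the fly PGC-1, was lower at 4 h (-0.87, SE 0.13, limma adjusted p = 0.000290) and 8 h (-0.64, SE 0.13, limma adjusted p = 0.00213) and not called at 16 h (-0.12, 95% interval -0.38 to 0.13, limma adjusted p = 0.441). Subunit genes of AMP-activated kinase, which phosphorylates acetyl-CoA carboxylase, were also called higher. AMPKalpha rose at 4 h (0.37, SE 0.085, limma adjusted p = 0.00683), 8 h (0.49, SE 0.085, limma adjusted p = 0.000819) and 16 h (0.29, SE 0.079, limma adjusted p = 0.0115), and SNF4Agamma at 8 h (0.54, SE 0.079, limma adjusted p = 0.000262) and 16 h (0.24, SE 0.073, limma adjusted p = 0.0193), the latter not without the 3 cuticle-rich libraries (0.26, adjusted p = 0.0555). Beside 17.5% of all genes higher and 16.9% lower at 8 h, 5 of the 8 genes were called higher and 1 lower (median 0.35). At 4 h, beside 12.8% and 11.4%, the counts were 3 and 1 (0.16). At 16 h, beside 19.4% and 20.4%, they were 3 and 0 (0.14). Without the 3 cuticle-rich libraries 4, 3 and 2 were called higher. There were 0 lower at 16 h also by edgeR and at an unadjusted p under 0.05. Hnf4, a nuclear receptor known in flies to activate genes of fatty acid oxidation, was not called, at 0.015, 95% interval -0.15 to 0.18, limma adjusted p = 0.904 for 8 h.

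The acetyl-CoA released by the spiral enters the TCA cycle, and of its 13 listed genes none was called lower against LSD at any time by limma or edgeR, nor at an unadjusted limma p under 0.05. By limma, 7 were called higher at 8 h, 3 at 4 h and 7 at 16 h, and the median log2 differences were 0.19, 0.086 and 0.16. At these times 17.5%, 12.8% and 19.4% of all genes were called higher and 16.9%, 11.4% and 20.4% lower. Under quantile normalization 4, 1 and 12 of the 13 were called higher, and 1500, 1278 and 2440 of all 10114 genes. SdhB, a subunit of succinate dehydrogenase, rose at 4 h (0.19, SE 0.046, limma adjusted p = 0.0111), 8 h (0.31, SE 0.046, limma adjusted p = 0.000303) and 16 h (0.45, SE 0.043, limma adjusted p = 9.80e-06). Others named by the rule for examples were Mdh2 (malate dehydrogenase, 0.14 at 4 h, 0.28 at 8 h and 0.37 at 16 h), Acon (aconitase, 0.28 at 8 h and 0.38 at 16 h), CG6439 (an isocitrate dehydrogenase subunit, 0.16 at 4 h, 0.27 at 8 h and 0.26 at 16 h) and kdn (citrate synthase, 0.22 at 8 h and 0.38 at 16 h), each of these log2 differences called higher. Mdh2 lost its 4 h call without the 3 cuticle-rich libraries (0.15, adjusted p = 0.0839). The summed normalised read count of the 13 genes lay at 4344 to 4758 in LSD and at 5207 to 5480 in HSD at 16 h, while that of the 10 oxidation enzymes lay at 1956 to 2221 and at 1436 to 1502. No test was made between the lists.

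**Figure D3:**
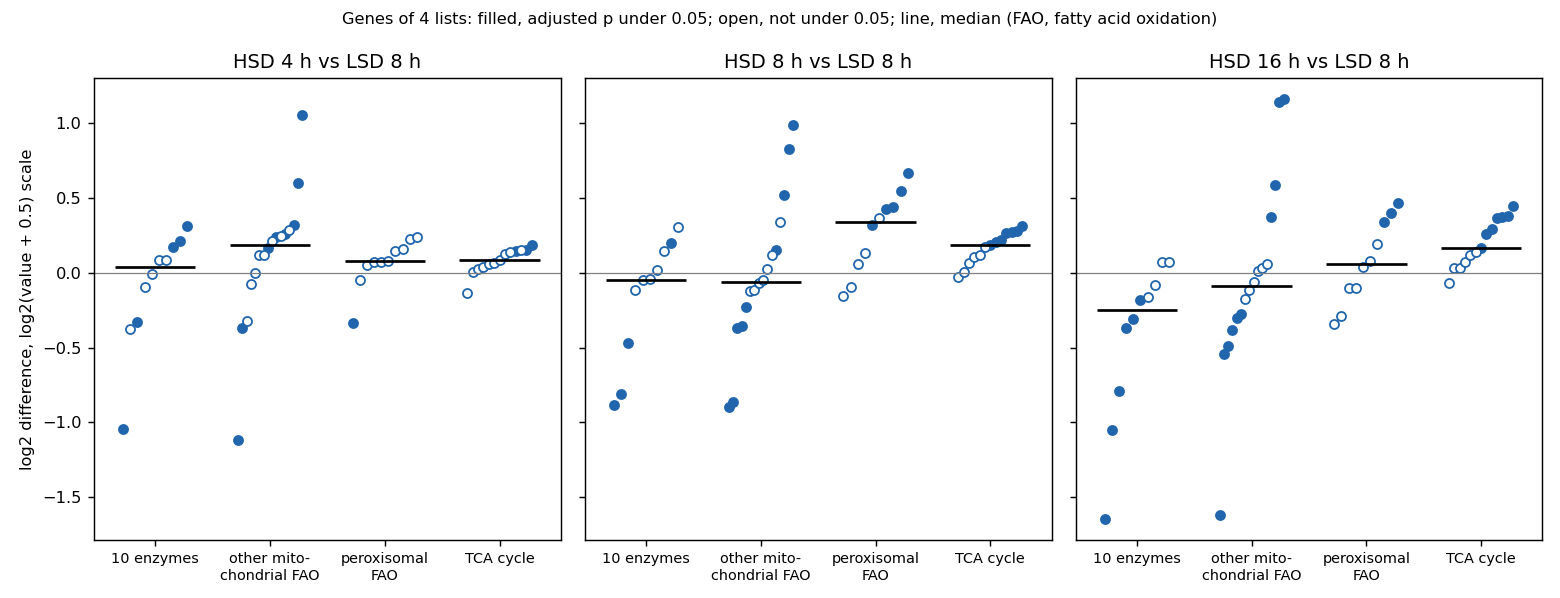
The vertical axis is the log2 difference from LSD at 8 h on the log2(value + 0.5) scale, with a panel per HSD time and a column per list (the 10 enzymes, other mitochondrial oxidation genes, peroxisomal genes and TCA cycle genes). Each point is a gene, filled where its adjusted p is under 0.05, and the line is the list's median, which for the 10 enzymes is -0.25 and for the TCA cycle 0.16 at 16 h.

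Markers of the tissues moved with the diet groups in the same libraries. Over all genes 17.5%, 12.8% and 19.4% were called higher and 16.9%, 11.4% and 20.4% lower at 8, 4 and 16 h against LSD. Of 12 muscle markers none was called higher and 3, 0 and 9 were called lower at these times. Their summed normalised read count lay at 44485 to 53282 in LSD, 45529 to 51012 at 4 h, 42397 to 46426 at 8 h and 38944 to 41297 at 16 h, with no marker at 0 in a whole group. EdgeR and unadjusted p-values gave no higher muscle marker either. Without the 3 cuticle-rich libraries 0 muscle markers were called lower at 8 h and 4 at 16 h, and under quantile normalization 5 and 5. Thus the muscle sum, like the values of CG12262, yip2, whd and Thiolase, was below the LSD range in all 4 libraries at 16 h. Of 9 midgut markers 8, 1 and 8 were called higher (7, 1 and 8 without the 3 cuticle-rich libraries) and none lower, and their sums lay at 2590 to 3850, 1823 to 3599, 4705 to 5767 and 5893 to 7544 in the same order. Of 3 oenocyte markers none was called higher and 1, 0 and 1 were called lower, with sums of 637 to 718, 540.0 to 649, 557 to 619 and 554 to 604. Without the 3 cuticle-rich libraries 0 of them were called lower at each time and 1 was called higher at 8 h. With all libraries FASN2 was higher at 8 h without a call (0.22, limma adjusted p = 0.0895). Neither of the 2 measured fat body markers was called at 8 or 4 h. Lsp1gamma was called higher at 16 h (not without the 3 cuticle-rich libraries, limma adjusted p = 0.111), at low means of 0.328 in LSD and 1.69 at 16 h. Rfabg was lower at 16 h without a call (-0.34). The sums of both, nearly all of them Rfabg, lay at 3105 to 6029 in LSD and 2889 to 3400 at 16 h. The 10 cuticle markers summed to 641 to 2009 in LSD, 333 to 1109 at 4 h, 1503 to 2440 at 8 h and 216 to 1073 at 16 h. The part of these markers in the results was not tested.

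**Figure D4:**
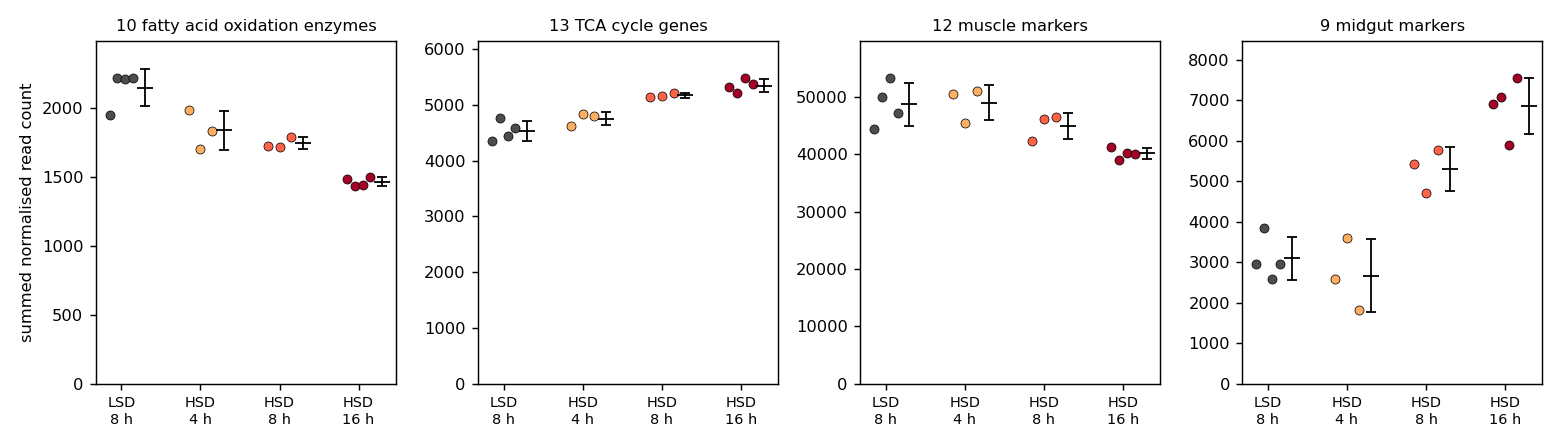
Each panel gives the summed normalised read count of a gene list per library on a vertical axis from 0, for LSD at 8 h and HSD at 4, 8 and 16 h, with dots for libraries and bars for the mean ± SD. Muscle markers and the 10 enzymes are lowest at 16 h, at 38944 to 41297 and 1436 to 1502, while midgut markers are highest there, at 5893 to 7544.

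The mean of the members' standardised log2 values gave a common profile over the 14 libraries. As a description, the Pearson correlation of each member with it was 0.96 for Thiolase, 0.89 for Mtpalpha, 0.86 for CG12262, 0.84 for yip2, 0.80 for scu, 0.74 for Etf-QO and 0.73 for whd. The 3 others were at 0.35 (CPT2), 0.19 (Arc42) and -0.24 (CG3902), so CG3902 alone ran against the profile. Every member is itself part of the mean, which raises these values. Of 8623 other genes with a mean value of at least 5, the 6 with the highest correlation to the profile were CG34396 (0.95), Actn (0.94), Fbw5 (0.93), Timp (0.93), CG17244 (0.93) and Spn43Ab (0.92). Actn, which encodes the actin cross-linker alpha-actinin of the muscle Z disc, was at 978 ± 63.8 in LSD (SD, n = 4), 1072 ± 52.1 at 4 h (n = 3), 964 ± 52.1 at 8 h (n = 3) and 744 ± 29.7 at 16 h (n = 4). Timp, a tissue inhibitor of metalloproteinases, went from 18.4 ± 2.60 in LSD to 12.3 ± 0.573 at 16 h. The libraries share their diet groups and their scaling, and no p-value is given for these correlations.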

How the data were processed

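RNA depleted of ribosomal RNA from whole larvae was sequenced as stranded 75 bp single-end reads in 2 technical runs per sample, per the labels' protocols. Trimmomatic, HTSeq, limma and TopHat2 2.1.0 were used by the authors, per the submitters' processing notes. Not given in the sources used here are the build, the gene models, whether strand was used in counting, and the rule for keeping genes. The authors deposited 1 table of 10128 genes and 14 libraries, grouped here by sample title. Replicate 2 of HSD at 4 h and replicate 1 of HSD at 8 h are marked in their labels as outliers taken out, and were not analysed here. The authors deposited signal values, in which read counts had been scaled by an effective library size; all of them (100%) were whole reads within 0.01 read. Log2 fold changes, test statistics (scores) and p-values of the authors' own comparisons stand in the same table, per the file headers, and were used only for counts of called members.

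Values were tested with limma 3.58.1 in R 4.3.3 on the scale log2(value + 0.5). The 10114 genes tested had a value of 1 or more in 3 or more libraries (14 did not). All 4 groups shared 1 fit (10 residual degrees of freedom, variance trend), with two-sided p-values adjusted by Benjamini-Hochberg over all genes tested in a comparison and a threshold of 0.05. A log2 difference is the first group minus the second. The limma fit was run on simulated data for HSD against LSD at 8 h, and the other comparisons and alternative fits were not. EdgeR 4.0.16 (quasi-likelihood) on the recovered reads was an alternative. The tests had been written for CPM values. Column totals were unequal (910679 to 1063358), so the values were treated as a signal with the same test. The totals differed by group: the 4 HSD 16 h libraries were at 910679 to 950524 and all others at 987285 or more. What part this had in the 16 h comparisons was not tested. Gene positions and exonic lengths were read from Ensembl's BDGP6.54 annotation, where 9 members were found by identifier; Etf-QO was matched by symbol. No sequences are shown.

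All 10 members are named, and from each other list the 3 called genes with the largest absolute log2 difference from LSD at each time. Likeness to the members was ranked among genes with a mean of at least 5. The members, lists and tests were chosen with earlier results of these data known. TwdlJ, TwdlO, TwdlP, TwdlQ, CG7457, CG11777, Rfabg and Lsp1gamma, and the libraries rich in cuticle transcripts, were chosen after values were seen.

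Replicate numbers in the titles were checked for pairing by the correlation of same-numbered libraries' deviations from their group means, and they did not pair the samples. Alternatives covered the pseudocount, the filter, the scaling, the samples in the fit, the variance trend, library weights, a replicate block, the threshold and leaving out each library.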

Additional observations from a re-analysis of the deposited data

Results flagged for a closer look

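In 20 groups of 4 libraries (each enzyme in LSD at 8 h and in HSD at 16 h), no library stood apart from the others of its group by Dixon's criterion, although about 1 group in 20 would do so by chance.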

How the results depend on the processing

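Of 1680 values (10 members, 6 comparisons and 28 alternatives), 1564 kept their direction and side of the threshold, 76 lost a call, 15 gained one and 25 changed sign. Leaving out a library of a group not compared cannot change the log2 difference. Part of the 1564 was thus fixed in advance, and their share does not measure robustness. Of the sign changes, Mtpalpha for 16 against 8 h under quantile normalization was the only one whose value with all choices as reported was called. In log2 differences, these were as follows. Mtpalpha went, for 8 h against LSD from 0.020 to -0.045 (quantile) and -0.019 to 0.046 (leaving out 1 library), and for 4 h against LSD from -0.0091 to 0.038 (library weights), 0.0028 (replicate block), 0.038 (without the cuticle-rich libraries) and -0.048 to 0.012 (leaving out 1 library), and for 8 against 4 h from 0.029 to -0.025 (quantile) and -0.0057 to 0.055 (leaving out 1 library), and for 16 against 8 h from -0.20 to 0.0020 (quantile). Thiolase went, for 8 h against LSD from -0.046 to 0.014 (library weights), 0.026 (without the cuticle-rich libraries) and -0.10 to 0.0030 (leaving out 1 library). Arc42 went, for 8 h against LSD from -0.044 to 0.011 (without the cuticle-rich libraries). whd went, for 4 h against LSD from -0.10 to 0.017 (library weights), 0.0053 (without the cuticle-rich libraries) and -0.32 to 0.078 (leaving out 1 library). Etf-QO went, for 16 h against LSD from -0.080 to 0.038 (quantile). CPT2 went, for 8 against 4 h from -0.012 to -0.054 to 0.011 (leaving out 1 library). scu went, for 16 against 8 h from -0.046 to 0.17 (quantile). The cause was not tested.

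Members called lower at 16 h against LSD numbered 6, 3 under quantile normalization and 2 without the 3 cuticle-rich libraries. Over all genes these lower calls numbered 2059, 1670 and 1531. Members called higher there numbered 1 under quantile normalization and under library weights. At 8 h, where 1 was called higher, the count was 0 under quantile normalization, in a fit restricted to the groups compared, at a 0.01 threshold and without the cuticle-rich libraries, but 2 under library weights. At 4 h, 1 in place of 3 was called higher in a fit of only the groups compared and at 0.01. For 8 against 4 h, in place of 1, 2 were lower under quantile normalization and library weights, and 0 in a fit of only the groups compared and at 0.01. For 16 against 8 h, 2 were higher under quantile normalization and library weights, and 3 lower under quantile normalization and at 0.01. For 16 against 4 h, 4 were lower under quantile normalization and at 0.01. Over all genes, a 0.01 threshold left 2124, 1459 and 2553 calls at 8, 4 and 16 h against LSD, and 174, 1510 and 2230 for 8 against 4 h, 16 against 8 h and 16 against 4 h. A fit of only the groups compared called 1411 genes at 4 h, and library weights 1770 for 8 against 4 h.

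Leaving out 1 library at a time gave 0 to 2 members higher at 8 h, 1 to 3 higher at 4 h, 0 to 2 lower for 8 against 4 h, 4 to 6 lower for 16 against 8 h and 4 to 7 lower for 16 against 4 h. It gave 320 to 1274 calls over all genes for 8 against 4 h.

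The replicate numbers shared by the titles did not pair the libraries: same-numbered libraries had correlations of -0.46 to 0.35, of which 6 of 18 were above 0.1. Differently numbered libraries of different groups had correlations of -0.503 to 0.557, of which 18 of 55 were above 0.1. With the replicate block, 0 members were called higher at 8 h and 0 lower for 8 against 4 h, where 159 genes were called in all.

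Each enzyme had at least 742 reads in each library. With 3 or 4 libraries a group, the differences of CPT2 from LSD at 4 and 8 h, and those of Arc42 at 4 h and of Etf-QO at 8 h, lay near the threshold. The labels give no batch, and LSD was sampled at 8 h alone.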
